A study of Mus musculus with 4 samples.

Results

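CTCF, a zinc-finger protein, was mapped by chromatin immunoprecipitation and sequencing (ChIP-seq), and 404 of its genomic regions were called in both parts of the forelimb and in neither of the other tissues profiled. Peaks of 4 lists that shared at least 1 base were joined into 121759 union regions on chromosomes 1 to 19, X and Y. A region was kept when it held a peak of the distal and of the proximal forelimb list and none of the posterior trunk or brain list. These limb-shared regions were 0.332% of all union regions. They were chosen by the calls themselves, so their strength in the forelimb lists and their lack of a peak elsewhere describe the choice and were not tested.

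All 4 libraries came from wild-type (WT) mouse embryos of the B6CBAF1 strain, with 1 library per tissue. Distal and proximal forelimb, the future hand and the more proximal arm, were taken at embryonic stage E12.5, and the library titles mark both as re-analysed data. Posterior trunk was labelled E10 and came from about 30 embryos. The piece ran from the tailbud through presomitic mesoderm to the last few somites, and the budding hindlimb was trimmed away where it could be. For brain, 6 telencephalons of stage E12.5 were pooled. The series concerns CTCF sites of the Hoxd cluster, and the comparison asks which sites the forelimb parts share that the other tissues lack.

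CTCF binds an extended DNA motif with its zinc fingers. Bound sites stop cohesin as it extrudes chromatin loops, so that they mark loop anchors and borders of topological domains. Most sites are occupied in many cell types. In the limb bud, distal and proximal cells use different chromatin domains around the Hoxd genes, and the border between those domains holds a row of CTCF sites.

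The forelimb lists held 64793 distal and 63873 proximal peaks, against 106662 in posterior trunk and 74127 in brain. Relative to distal forelimb, depth was 1.08 in proximal forelimb, 2.21 in posterior trunk and 2.02 in brain, as read from the lowest local background of each list. Absolute depth is unknown. By this measure alone, both forelimb libraries were shallower than both others, and they were also the only re-analysed ones. A contrast of forelimb with the rest thus cannot be told apart from a contrast of depth or of data origin. Posterior trunk also differed in stage, E10 against E12.5, and its contrast with forelimb cannot be told apart from a contrast of stage. With 1 library per tissue no difference has a replicate check. Fewer cells bound and lower occupancy per cell cannot be told apart either, and peak lists carry no expression markers to check a dissection.

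Sequence was at hand for gene starts only, and 17 members overlapped a RefSeq promoter window (GRCm38.p6, the assembly of mm10), which runs from 250 bases before to 50 after a start. Of these, 11 had the distal forelimb summit inside such a window. The 5 shown here are the protein-coding ones with both forelimb summits inside and at most 30 bases apart. They show up to 40 bases on either side of the summits, on the strand of the gene and cut off before its start. Capitals mark a match to the CTCF core in Gpha2, and otherwise the bases from one forelimb summit to the other.
Gpha2, chr19:6226350-6226400, plus strand: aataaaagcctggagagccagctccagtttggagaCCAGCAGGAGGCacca
Pced1b, chr15:97246960-97247057, plus strand: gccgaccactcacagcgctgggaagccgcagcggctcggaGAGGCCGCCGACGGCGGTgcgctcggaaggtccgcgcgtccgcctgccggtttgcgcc
Pds5a, chr5:65698298-65698405, minus strand: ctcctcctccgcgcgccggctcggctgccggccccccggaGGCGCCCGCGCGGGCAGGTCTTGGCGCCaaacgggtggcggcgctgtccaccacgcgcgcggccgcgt
Nap1l1, chr10:111472977-111473031, plus strand: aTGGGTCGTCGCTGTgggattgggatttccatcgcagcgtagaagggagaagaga
Utf1, chr7:139943734-139943819, plus strand: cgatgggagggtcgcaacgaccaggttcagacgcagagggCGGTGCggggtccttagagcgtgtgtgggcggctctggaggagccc

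The core was searched on both strands as CC, any 3 bases, AG, any 2 bases and GGC. It was found in 1 of the 11 promoter windows with a limb-shared summit, or 9.09% with an exact 95% interval of 0.230% to 41.3%. All 32851 promoter windows held it in 8.61% of cases. Windows with a summit called in all 4 tissues held it in 674 of 1774 cases, or 38.0%. Distal-only summits gave 10 of 31 windows and proximal-only summits 6 of 23. In the 100 bases around the summit alone, the counts were 1 of 11 for limb-shared, 3 of 31 for distal-only, 1 of 23 for proximal-only and 545 of 1774 for summits called everywhere. The match in Gpha2, which encodes a subunit of a glycoprotein hormone, lay at chr19:6226385-6226396. It spanned the distal summit at 6226390 and ended 1 base before the proximal summit at 6226397, and its last base lay 5 bases before the gene start. Median GC content was 62.0% in the limb-shared windows, 61.0% in those of regions called everywhere and 52.7% in all windows. A match here is a run of letters and not a measured site, and no match says only that these letters are not in the window.

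Values at these promoters were low. At Gpha2 the pileup, which counts extended reads over the summit, was 21 over a background of 4.68 in distal forelimb and 18 over 4.92 in proximal forelimb. The authors' folds, defined as pileup plus 1 over background plus 1, were 3.87 and 3.21. Pds5a, which encodes a regulator of the cohesin ring, had pileups of 38 and 50 over higher backgrounds of 10.8 and 11.5, and folds of 3.30 and 4.09. Utf1, a transcription factor of pluripotent cells, had a second limb-shared region at chr7:139943079-139943602. The one under its promoter had folds of 2.79 distally and 3.64 proximally, and the neighbour had 3.02 and 3.31.

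Across the 404 members, CTCF signal was weak to moderate and similar in size in both forelimb parts. The distal fold ran from 2.35 to 10.5 with a median of 3.65, and the proximal fold from 2.39 to 8.06, also with a median of 3.65. Peaks of each whole list had medians of 6.89 distally and 6.64 proximally. Ranked among the peaks of 1 list by p, from weakest to strongest, the median member stood at percentile 18.1 in distal and 17.1 in proximal forelimb. The lower of the 2 ranks was under 30 for 365 members and at least 50 for only 1. At the summit the median pileup was 22 distally and 23 proximally, so single values rest on few reads.

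**Figure D1:**
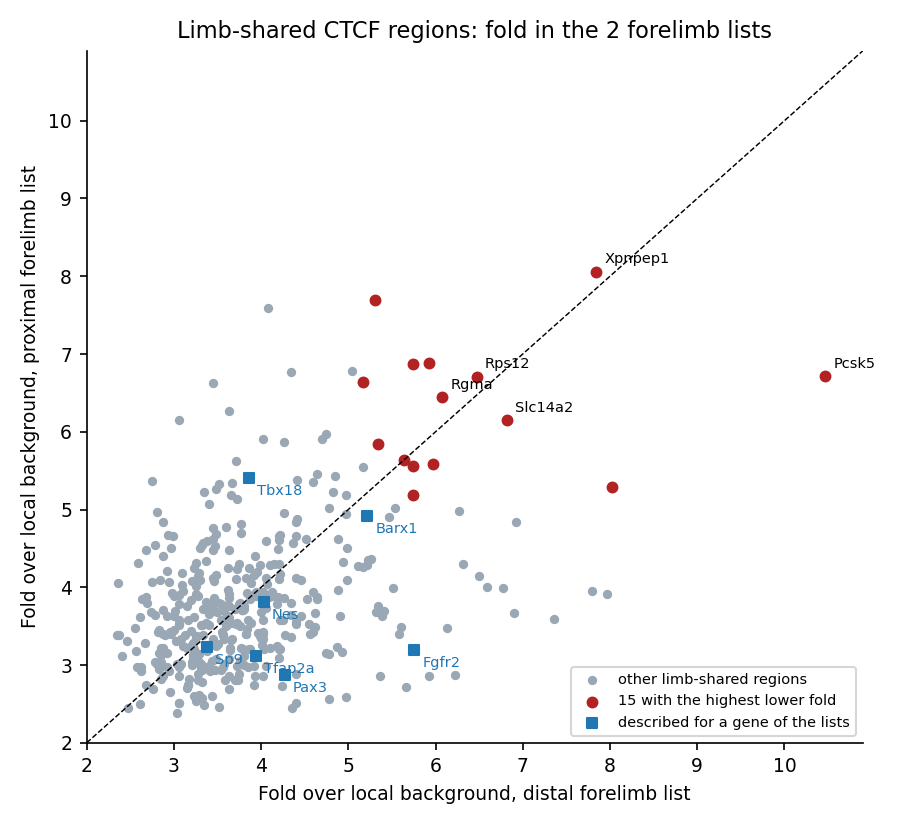
Authors' fold of each of the 404 limb-shared regions in the distal forelimb list (horizontal) and the proximal forelimb list (vertical), with the diagonal dashed. Red points are the 15 members with the highest lower fold, with the nearest gene given for 5 of them, and blue squares are the regions described for genes of the lists. Most points sit between 2.35 and 4.3 on both axes, and the point at 10.5 and 6.71 is the region nearest Pcsk5.

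The strongest member by the lower of its 2 folds was chr19:52854123-52854528, 76.8 kb from Xpnpep1, an aminopeptidase gene. Its pileup was 40 over a background of 4.23 in distal forelimb and 44 over 4.58 in proximal forelimb, giving folds of 7.84 and 8.06, with summits 1 base apart. The nearest peak of posterior trunk lay 49.6 kb away and that of brain 36.3 kb away. Both backgrounds were the lowest of their lists, which within 1% held for 71 members in distal and 67 in proximal forelimb.

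The highest single fold was at chr19:18053748-18054348, 216 kb from Pcsk5, which encodes a proprotein convertase. Distal forelimb had a pileup of 88 over 7.50, and proximal forelimb 48 over 6.30, with folds of 10.5 and 6.71. It was the widest of the leading regions, and distal forelimb was the higher of the 2 libraries. Next came chr10:23683079-23683429, 102 kb from Rps12, a ribosomal protein gene, with folds of 6.47 distally and 6.71 proximally.

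Several of the next members lay far from genes or inside long ones. The region chr7:73154748-73155098, 220 kb from Rgma, a guidance molecule and BMP co-receptor, had folds of 6.08 distally and 6.45 proximally and summits on the same base. Folds were 5.93 and 6.88 at chr13:25829068-25829449, which lay 559 kb from Nrsn1. Slc14a2, a urea transporter gene, held chr18:78486203-78486576 at 6.82 and 6.15. A posterior trunk peak lay only 0.349 kb from that region, while the nearest brain peak was 53.1 kb away.

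Ctnna3, a long gene for an alpha-catenin, held 2 members. One, chr10:64641530-64641914, had folds of 5.74 distally and 6.87 proximally, and the other, chr10:64580243-64580652, had 5.34 and 3.76. Ank3, which encodes the membrane scaffold ankyrin G, held chr10:69738628-69738951 at 5.17 and 6.65. Ncoa1, a nuclear receptor coactivator gene, held chr12:4283415-4283720 at 5.34 and 5.84. The remaining members of the leading 15 lay in Ttll5, Ttc6 and Cltrn or nearest Smim23, Magee1 and Sipa1l2, with lower folds from 5.19 to 5.64. In Ttll5, a tubulin-modifying enzyme gene, pileups reached 66 and 68, and trunk and brain peaks lay 0.496 and 0.563 kb away.

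Members with the least support lay just inside the calling threshold, a q of 0.05 or a −log10 q of 1.30. The lowest was chr1:170643832-170644236, 0.195 kb from Olfml2b, at a −log10 q of 1.39 in distal and 3.39 in proximal forelimb. It was followed by a region 17.7 kb from Mfsd11, at 1.40 and 4.62, and one in Hcfc2 at 4.47 and 1.48. Just outside the rule stood a region in Adk with forelimb folds of 3.51 and 3.46, which posterior trunk called at a −log10 q of 1.42. Another, 0.430 kb from Pdlim3, had forelimb folds of 3.68 and 3.85 and was called in brain at 1.58. Forelimb folds of these excluded regions lay within the range of the members.

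Regions called in both forelimb parts were seldom missing elsewhere, and the missing ones were weak. Of 54204 such regions, 404 were limb-shared, or 0.745%. A further 1791 were called in posterior trunk and not brain, and 352 in brain and not trunk. In the lists as deposited, brain thus lacked 4.05% of the regions called in both forelimb parts and posterior trunk 1.39%. The trunk list was also longer, with 106662 peaks against 74127 in brain. With lists cut to equal length the order turned, with 1367 called in trunk and not brain and 2280 in brain and not trunk. With pileups thinned to equal depth these were 2672 and 587, so the order depended on the setting. Among regions called in both forelimb parts with a lower rank under percentile 10, the limb-shared share was 5.42% as deposited. It was 2.55%, 1.37% and 0.552% in the next bins of 10. No limb-shared region had a lower rank of 60 or more. Weaker sites have a lower chance of passing any list, and how far this trend follows from peak calling was not tested.

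**Figure D2:**
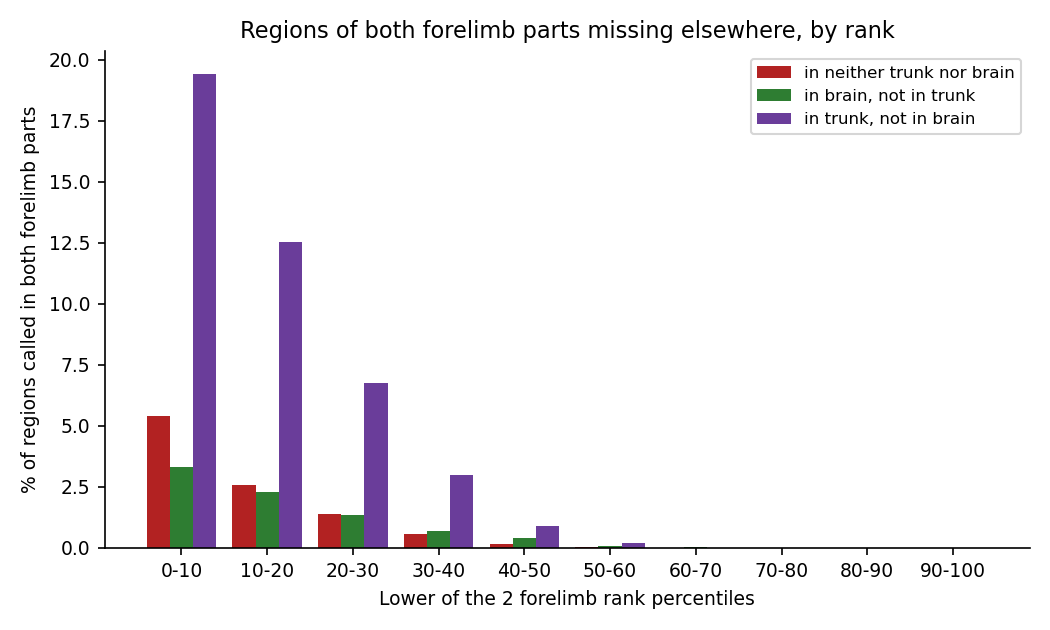
Share of regions called in both forelimb parts that lacked a peak elsewhere (vertical, %), in bins of the lower of the 2 forelimb rank percentiles (horizontal). Lists are as deposited. Red bars are limb-shared regions, green bars lacked a posterior trunk peak only, and purple bars lacked a brain peak only. Red bars go from 5.42% in the weakest bin to 0 from percentile 60 up, and the purple bars are the tallest up to that point.

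The depth needed to call a member elsewhere was worked out from the same values that chose it, so the counts that follow are a description and do not separate depth from occupancy. With pileup and background scaled to the depth of the other library, 393 of 404 members would have been called in posterior trunk with a chance of at least 0.95, and 381 in brain. These chances were largely fixed in advance, because the members were picked for passing in both shallower lists. A region on the same scaled background would have been called from a median fold of 1.97 in posterior trunk and 2.05 in brain. A fold that passed in a shallower list lies above that level by construction. The lower forelimb fold was at least 1.5 times the level in 280 members and at least 2 times in 73. The calculation assumes that local background scales with depth. With a background 2 times as high, the number with a chance of at least 0.95 in both tissues was 77 and not 381.

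**Figure D3:**
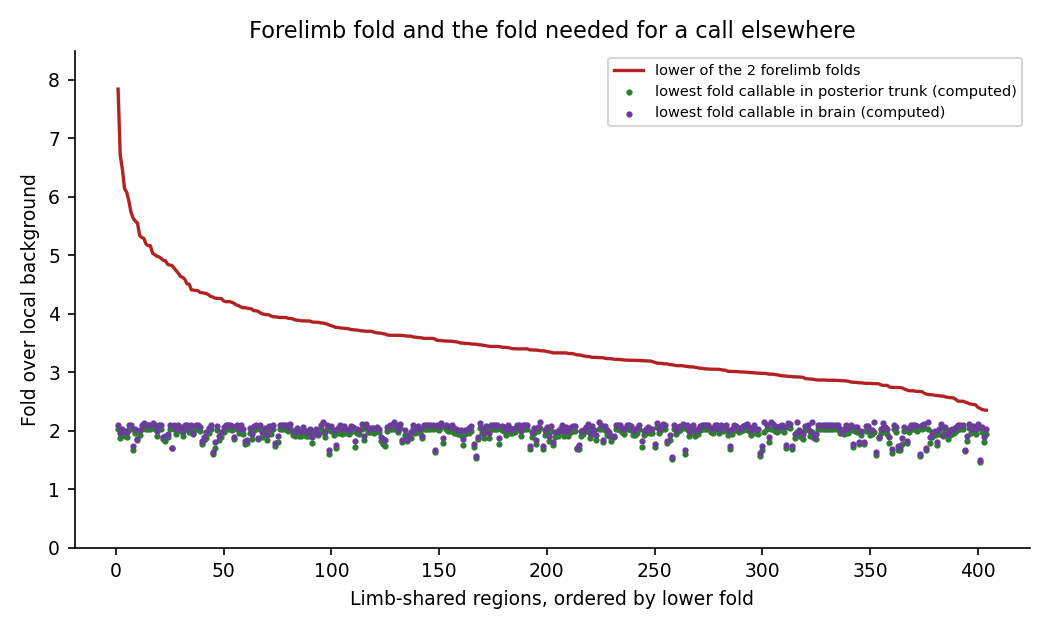
The lower forelimb fold of each limb-shared region (red line), with the regions ordered from strongest to weakest, and the lowest fold that would have been called in posterior trunk (green points) and brain (purple points) on the same scaled background. The line runs from 7.84 to 2.35 and lies above the points, whose medians are 1.97 and 2.05, as the choice of members fixes.

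Summits in both forelimb parts fell close together. They lay at most 25 bases apart in 209 members and at most 50 apart in 318, with a median of 24 bases. Members with a lower rank under percentile 10 had a median of 32 bases, against 33 in regions called everywhere and of the same rank. From percentile 10 to 20 the medians were 26 and 24 bases, and from 20 to 30 they were 15.5 and 19. The summit distance was not used in the choice, beyond the overlap of the peaks. At equal rank, members placed their summits about as closely as sites shared by all tissues.

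Distal and proximal forelimb rarely differed at a member beyond counting error. The distal fold was the higher one in 212 members and the proximal fold in 192. Across members the folds correlated at a Pearson r of 0.414 and a Spearman rho of 0.344 (n = 404 regions, which share 2 libraries). The distal share of the 2 pileups was set against the 48.0% that depth gives, with exact 95% intervals that cover counting error only. It was above in 17 members, or 4.21%, and below in 4, or 0.990%. In all regions called in both forelimb parts with summed pileups in the same range, these shares were 6.08% and 1.65%. The members' counts were thus not above that background. Members and background regions alike had to pass in both lists, which limits how far their folds can part.

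The regions named here were taken from either end after their values were seen. The most distal of them was chr8:122193644-122193994 in Zfp469, with a pileup of 50 in distal and 22 in proximal forelimb, a distal share of 69.4% (57.5% to 79.8%). Next was chr3:30445820-30446140 in Mecom, a zinc-finger transcription factor gene, with 59 and 27. At the other end, chr16:44703332-44703700, 20.6 kb from Nepro, had 18 and 39, a distal share of 31.6% (19.9% to 45.2%). Pcca, a mitochondrial carboxylase gene, held chr14:122881496-122881870, with 28 and 57.

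Listed genes had a member nearby at about the share seen for all genes. Within 50 kb of the gene span, 2.93% of all 21883 protein-coding genes had a limb-shared region, and so did 8 of the 270 listed genes, or 2.96%. By list, these were 3 of 61 limb bud genes, 1 of 41 cartilage and tendon genes, 2 of 19 limb muscle genes and 1 of 19 limb ectoderm genes. Telencephalon genes had 1 of 30. The 41 Hox and Evx genes, the 30 tailbud and presomitic mesoderm genes, the 20 blood and endothelial genes and the 15 nerve and neural crest genes had 0. Each count rests on at most 3 genes, too few to set 1 list apart from the background. With a window of 500 kb, chosen after the data were seen, 17.5% of all protein-coding genes had a member, and so did 58 of the 270 listed genes. The list shares were then 31.6% for limb ectoderm, 29.3% for cartilage and tendon, 24.6% for limb bud, 22% for Hox and Evx, 21.1% for limb muscle and 20% for nerve and neural crest genes. They were 16.7% for telencephalon and 10% each for blood and endothelial and for tailbud and presomitic mesoderm genes. Lists thus lay on either side of the background, and the wide windows of neighbouring genes overlap.

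Among the limb bud genes, Tbx18, a T-box factor of limb mesenchyme, had chr9:87733228-87733524 at 1.97 kb. Its pileup was 35 over 8.32 in distal forelimb and 46 over 7.70 in proximal forelimb, with folds of 3.86 and 5.40. Trunk and brain peaks lay 1.61 and 1.57 kb away. Sp9, a zinc-finger factor of the limb ectoderm, had chr2:73264312-73264623 at 7.30 kb, with folds of 3.37 and 3.23, and a trunk peak 0.478 kb away. Fgfr2, an FGF receptor needed for limb outgrowth, had chr7:130288582-130288871 at 21.8 kb, with folds of 5.75 distally and 3.19 proximally. Its distal share of 64.8% (50.6% to 77.3%) lay above the 48.0% that depth gives. Such intervals were found in 4.21% of all members. They were found in 6.08% of regions called in both forelimb parts with summed pileups in the same range. A second member, chr7:130326146-130326450, lay 59.3 kb from Fgfr2 with folds of 3.33 and 3.39.

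Barx1, a homeobox gene of developing joints, had the highest lower fold of the regions described for listed genes. At chr13:48672324-48672696, 5.82 kb from the gene, the pileup was 42 over 7.24 in distal and 39 over 7.14 in proximal forelimb, with folds of 5.22 and 4.91. Trunk and brain peaks lay 1.9 and 1.92 kb away, so the region was a neighbour of sites used in those tissues.

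Of the muscle genes, Pax3, a paired-box gene of migrating muscle precursors, had chr1:78217365-78217667 at 20.2 kb with folds of 4.27 and 2.87. Tfap2a, which encodes an AP-2 factor of ectoderm and neural crest, had chr13:40696989-40697343 at 16.5 kb with 3.94 and 3.11. Nes, which encodes the neural progenitor filament nestin, had chr3:88007508-88007755 at 27.1 kb with 4.03 and 3.81. That region lay nearer to Bcan, at 5.33 kb.

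The Hox clusters held no limb-shared region in the lists as deposited. After pileups were thinned to equal depth, 8 of the 41 Hox and Evx genes had one within 50 kb, all of them in HoxA, against 6.37% of all protein-coding genes. The windows of neighbouring HoxA genes overlap, so a single region can count for several of them. These genes are therefore not separate observations. Of the limb-shared regions in the lists as deposited, the nearest to Hoxd was chr2:73925627-73925925. It lay 727 kb from the span of Evx2 to Hoxd1 and 13.2 kb from Atp5g3. Its folds were 3.44 distally and 2.61 proximally, with a trunk peak at 149 bases and a brain peak at 144 bases. The next lay 1195 kb from Hoxd.

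Members inside genes included several whose products act in signalling or in the matrix of limb mesenchyme. These were picked by name after the values were seen, so they are examples and not a theme. Kremen1, a receptor for Wnt inhibitors of the Dickkopf family, held 2 members, chr11:5244192-5244467 with folds of 2.92 and 4.21 and chr11:5257480-5257783 with 3.52 and 5.33. Proximal forelimb had the higher fold at both. At the second, the distal share of the pileups was 44.6% (31.3% to 58.5%), an interval that includes the 48.0% that depth gives. Wif1, which encodes a secreted Wnt inhibitor, held chr10:121079522-121079812 at 4.0 distally and 3.35 proximally. Vcan, which encodes the proteoglycan versican of precartilage mesenchyme, held chr13:89702402-89702727 at 6.13 and 3.47. Rarb, a retinoic acid receptor gene, held chr14:17012386-17012613 at 2.87 in both. In Pdgfra, a growth factor receptor gene of mesenchyme, pileups of 77 and 58 stood on the highest backgrounds of all members, 24.7 and 23.7, and the folds were 3.03 and 2.39.

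By position in the gene map, members resembled CTCF regions at large. Of the 404, 197 lay in a protein-coding gene span, or 48.8%, against 51.7% of all union regions. Within 1 kb of a gene end lay 41, or 10.1% (exact 95% interval 7.38% to 13.5%), against 10.4%. The gene table gives spans, so exons and introns were not told apart. Distal-only regions had 4.78% and proximal-only regions 4.87% at gene ends. Among regions whose −log10 q was 5 or more in each list that called them, the shares were 8.70% in members (5.05% to 13.7%), 8.81% in distal-only and 7.58% in proximal-only regions. The gap to regions of 1 forelimb part was thus not seen among the stronger ones.

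Members lay closer to a site called in all 4 tissues than regions of 1 forelimb part did. The median distance was 13.0 kb in members (95% interval of the median 11.0 to 14.6 kb), against 24.1 kb (22.8 to 25.6) in distal-only and 21.9 kb (20.7 to 23.8) in proximal-only regions. It was 13.2 kb in regions of trunk and brain only, 13.6 kb in distal forelimb and trunk and 12.8 kb in proximal forelimb and trunk. Distal forelimb and brain had 15.1 kb, and proximal forelimb and brain 11.7 kb. Regions of both forelimb parts and trunk had 12.6 kb, and those of both forelimb parts and brain 11.0 kb. The short distance was thus not particular to members. At a −log10 q of 5 or more the median was 10.6 kb in members (6.78 to 13.0) and 16.8 kb in distal-only regions (14.2 to 18.7). In proximal-only regions it was then 13.0 kb (10.5 to 16.0), which overlaps the members' interval. Neighbouring regions are not independent, so these intervals are too narrow.

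**Figure D4:**
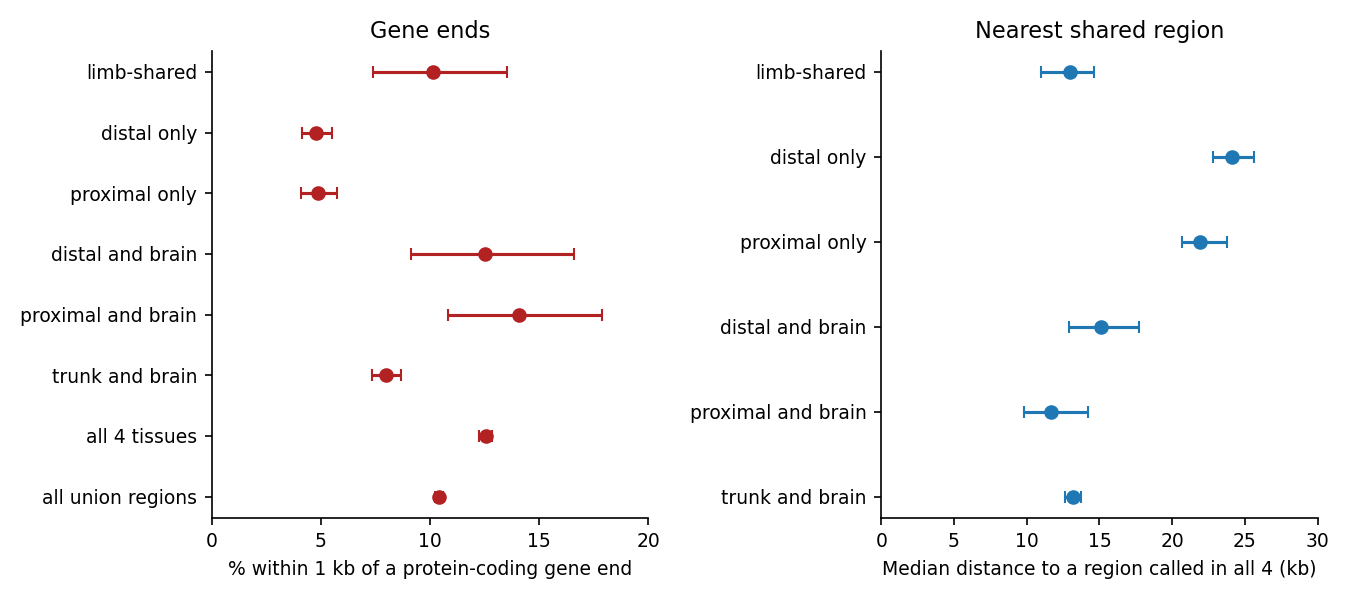
Left, share of regions within 1 kb of a protein-coding gene end with exact 95% intervals; right, median distance to the nearest region called in all 4 tissues with 95% intervals of the median, both by the tissues that called a region. Limb-shared regions sit at 10.1% and 13.0 kb, and distal-only regions at 4.78% and 24.1 kb. Regions of trunk and brain only sit at 7.98% and 13.2 kb.

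Of the members at gene ends, the leading 5 by lower fold were these. Col8a2, a collagen VIII chain gene, had chr4:126286829-126287083 at 4.93 distally and 4.33 proximally. Icmt, which encodes a methyltransferase for prenylated proteins, had chr4:152296671-152296963 at 0.251 kb, with folds of 4.06 and 4.04. Utp18, a ribosome biogenesis gene, held chr11:93885337-93885643 at 5.51 and 3.99, with trunk and brain peaks 0.202 and 0.231 kb away. Zeb1, which encodes a repressor of epithelial genes, held chr18:5591283-5591543 at 4.11 and 3.90. Anp32e, a histone chaperone gene, held chr3:95929600-95929862 at 3.88 and 4.06. Trunk peaks lay within 2 kb of each of these, from 0.202 to 1.89 kb away.

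Of the 404 members, 33 lay within 100 kb of another, in 15 pairs and 1 group of 3. No such count is given for regions of other patterns, so whether members cluster or stand apart was not tested. The group of 3 spanned 44.5 kb around Adamtsl4 and Ecm1, which encode matrix proteins. Its members were chr3:95687704-95687976 at folds of 3.49 and 3.69, chr3:95702282-95702526 at 3.26 and 3.12, and chr3:95731888-95732200 at 3.72 and 5.14. Beside the pair in Ctnna3, the next pair by the sum of lower folds lay at Etnk1 and C2cd5. There chr6:143192624-143193121 had 6.59 distally and 4.0 proximally, and chr6:143110468-143110714 had 4.46 and 3.63. Per chromosome, members were 2.36 to 4.44 of 1000 union regions on the autosomes and 4.34 on X, and chromosome Y had 0.

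The distance to the nearest trunk or brain peak varied widely among members. A peak of either tissue was within 1 kb of 62 members and within 0.2 kb of 14. The median distance was 5.75 kb to a posterior trunk peak and 9.46 kb to a brain peak. No share of this kind was computed for other union regions. Whether the close ones are flanks of the neighbouring sites was not tested.

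Among pairs of tissues, the forelimb pair was close in size to the pair of proximal forelimb and brain in the lists as deposited, and larger than both pairs of 1 forelimb part with brain after thinning. The 404 limb-shared regions stood beside 328 called in distal forelimb and brain only and 398 in proximal forelimb and brain only. After pileups were thinned to the lowest depth and all lists were held to 1 p threshold, a −log10 p of 5, the numbers were 800, 265 and 365. Of the 404, 336 were limb-shared there too. At a −log10 q of 5 or more the numbers were 270, 202 and 266. Regions of 1 forelimb part and trunk only numbered 2398 for distal and 2540 for proximal forelimb, and trunk and brain only shared 6650. The thinned values for these were 2393, 2492 and 2923. In lists of equal length the forelimb pair had 1643 regions. Trunk then shared 988 with distal forelimb only, 1184 with proximal forelimb only and 2111 with brain only. Brain shared 1013 with distal and 1274 with proximal forelimb only. The order of the forelimb pair and the pairs of 1 forelimb part with trunk thus depended on the setting.

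**Figure D5:**
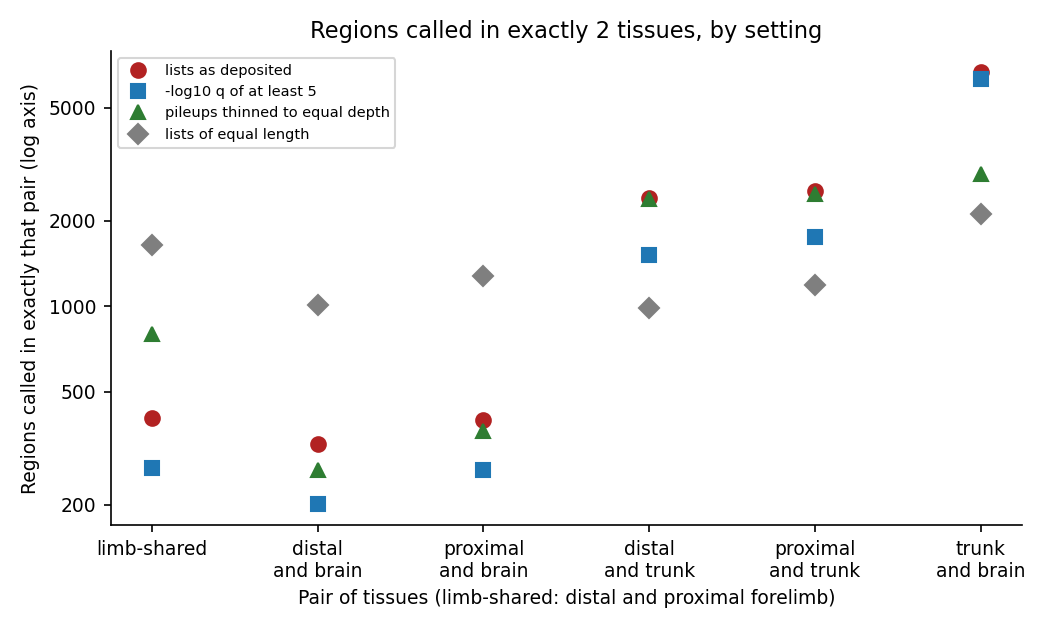
Number of union regions called in exactly 2 tissues (vertical, log axis) for each pair of tissues (horizontal), in the lists as deposited (circles), at a −log10 q of 5 or more (squares), after thinning to equal depth (triangles) and in lists of equal length (diamonds). The forelimb pair is at 404 as deposited and 800 after thinning, against 328 and 265 for distal forelimb and brain.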

How the data were processed

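CTCF ChIP-seq peak lists of 4 embryonic mouse tissues, 1 library each, were used. MACS2 2.1.1.20160309, SAMtools 1.9, Bowtie2 2.3.5, cutadapt 1.16 and build mm10 are named in the submitters' processing notes. Options, and any input control: not given in the sources used here. Each deposited fold is the ratio of summit pileup to local background, with 1 added to both. The authors' lists also give a −log10 p-value, a −log10 q-value and a score, 10 times the −log10 q as a whole number.

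Rows with the same interval were collapsed to the strongest summit, and coordinates are 1-based. Pileup and background were recovered from fold and p, and the −log10 p computed back from them differed by up to 0.000309. The ratio of the lowest backgrounds gave relative depth, and chances of a call were Poisson probabilities. No p-value across libraries was computed. Software was Python 3.11.15 with pandas 2.3.3, scipy 1.17.1, numpy 2.4.6 and, for plots, matplotlib 3.10.9. On simulated data, 100% of 16513 pileups were recovered, and 100% of 6000 regions were rightly sorted into limb-shared or not. The simulated regions never overlapped their neighbours, so peaks that bridge neighbouring sites were not tried.

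Gene spans came from RefSeq genes of GRCm38.p6, and all 270 listed symbols were matched. The members and lists were chosen with earlier results of these data known. A part of the named regions follows a rule. It took the 15 with the highest lower fold, the 3 with the lowest q and those near list genes. It also took the 5 leading ones at gene ends and the 3 largest groups. Other regions were named outside that rule. They include those with promoter sequence, those at either end of the distal share and those just outside the calls. Regions near Hoxd and in genes picked by name were outside it too. Alternatives were stricter p and q thresholds, lists of equal length, thinned pileups, other overlap and distance rules and other windows. The planned motif search around all summits used promoters only, and the 14 members on chromosome 18 were not analysed for sequence. The values of 1 region near a listed gene are not reported here.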

Additional observations from a re-analysis of the deposited data

How the results depend on the processing

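The number of limb-shared regions, 404, was 375 with a −log10 p of at least 5, 270 at a −log10 q of 5 or more, 392 with peaks within 200 bases joined, 400 when an overlap of 50% of the shorter peak was needed and 342 without a trunk or brain peak within 1 kb. It was 800 after thinning to equal depth and 1643 in lists of equal length, settings that remove weak trunk and brain peaks. Judged against posterior trunk alone it was 756 and against brain alone 2195, settings chosen after seeing the data, as was the window of 500 kb. The median lower rank percentile of 12.1 became 20.8 at that q and 9.98 after thinning, each among the peaks then kept. Chances of at least 0.95 in both other tissues held for 381 members, for 77 with 2 times the background and, at 0.5, for 404. Listed genes with a member went from 8 to 18 with 100 kb and 58 with 500 kb, to 4 at that q and to 23 after thinning, when all protein-coding genes went from 642 to 1072, 3836, 459 and 1393. After thinning, 6.37% of all protein-coding genes had a member, and lists lay on either side of that share. Hox and Evx genes had 19.5%, all in HoxA from Hoxa3 to Hoxa13, where windows overlap. Limb bud genes had 11.5% (7 of 61), and blood and endothelial genes 10%. Limb muscle and limb ectoderm genes had 5.26% each, and cartilage and tendon genes 4.88%. Telencephalon genes and tailbud and presomitic mesoderm genes had 3.33% each, and nerve and neural crest genes 0. Within 5 kb of a gene end were 21.5% of members, against 24.1% of union regions. In 100 bases around the summit the core motif was again in 9.09% of promoters. No paired analysis was possible because there was 1 library per tissue, and no replicate could be left out. Few reads per summit limit every single fold.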

Other observations

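The comparisons left out sequences other than chromosomes 1 to 19, X and Y. The mitochondrial sequence held 4 union regions and the unplaced and unlocalised sequences 135, and 0 of either were called in both forelimb parts and in neither posterior trunk nor brain.

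Usp24, a deubiquitinase gene, was the gene with the most members nearest to it, at 3. The region in its span, chr4:106334608-106334890, had folds of 3.22 distally and 3.08 proximally. The other two lay 277 kb and 358 kb away. Ebf1 and Id2, which encode transcription regulators, each had a pair of members over 250 kb from the gene, the Ebf1 pair at folds of 5.31 and 3.69 and of 3.64 and 4.48.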
